A study of Rattus norvegicus with 2 samples.

Results

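The genes of the colony-stimulating factor 1 (Csf1) receptor axis were examined in lumbar spinal cord (SC) in a rat model of neuropathic pain. The listed genes were Csf1r, its ligands Csf1 and Il34, the related receptor genes Csf2ra, Csf2rb and Csf3r, and the myeloid transcription factors Spi1 and Irf8. They were chosen by their known roles, but with earlier results of these data known. Of the 8 listed genes, 7 had a probe set of their own among the 18166 genes measured, and no probe set was named for Csf2ra. Adult male Sprague-Dawley rats received chronic constriction injury (CCI), in which 4 loose ligatures were placed around the left common sciatic nerve, or a Sham operation, in which that nerve was exposed and left untied. Segments L4-L6 of the SC were taken on postoperative day 10. RNA of 3 rats was mixed into 1 sample in each group, and a single Affymetrix Rat Gene 2.0 ST array was run for each mixture, so that there were 2 arrays in all. The labels do not say whether the SC on the side of the injury was taken alone. The values are log2 expression values from robust multi-array average (RMA). With 1 array per group there is no replicate error, none of the differences was tested, and single rats cannot be told apart.

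Csf1r is the receptor tyrosine kinase on which microglia and most tissue macrophages depend for survival and growth. It binds Csf1 and, with no sequence resemblance to it, Il34, which in the central nervous system is made mainly by neurons. In mice, sensory and motor neurons whose axons are cut make Csf1, and this ligand drives proliferation of spinal microglia. Csf2rb is the signalling subunit shared by the receptors for Csf2, Il3 and Il5, Csf2ra is the subunit that binds Csf2, and Csf3r is the receptor for Csf3, best known from neutrophils. Spi1 encodes PU.1, the ETS-family factor that sets myeloid identity, and Irf8 encodes an interferon regulatory factor that acts together with PU.1.

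The receptors and transcription factors of the axis were higher in the CCI pool, whereas the ligands were at nearly the same level in both pools. Of the 7 measured genes, 6 had a higher value in CCI and 1 a lower value, and 3 were higher by more than 1.5-fold, namely Csf1r, Spi1 and Csf2rb. The fold of 1.5 is the threshold in the methods of the study, and it was used here without the P value that goes with it. Across the 18166 genes, 1.64% passed this threshold upward and 1.14% downward, while 47.6% had a higher value in CCI by any amount and 52.4% a lower one. In tissue RNA, more cells of a type and more RNA per cell cannot be told apart, for these genes or those below. None of the 7 passed 2-fold, which 0.242% of all genes did upward. The median difference of the 7 genes was 0.51 on the log2 scale, against -0.01 over all genes, where the differences had an SD of 0.26. All 7 genes lay above the background level in both arrays, a rough level of 4.44 in Sham and 4.36 in CCI that was set at the 95th percentile of 1344 olfactory and vomeronasal receptor genes.

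**Figure D1:**
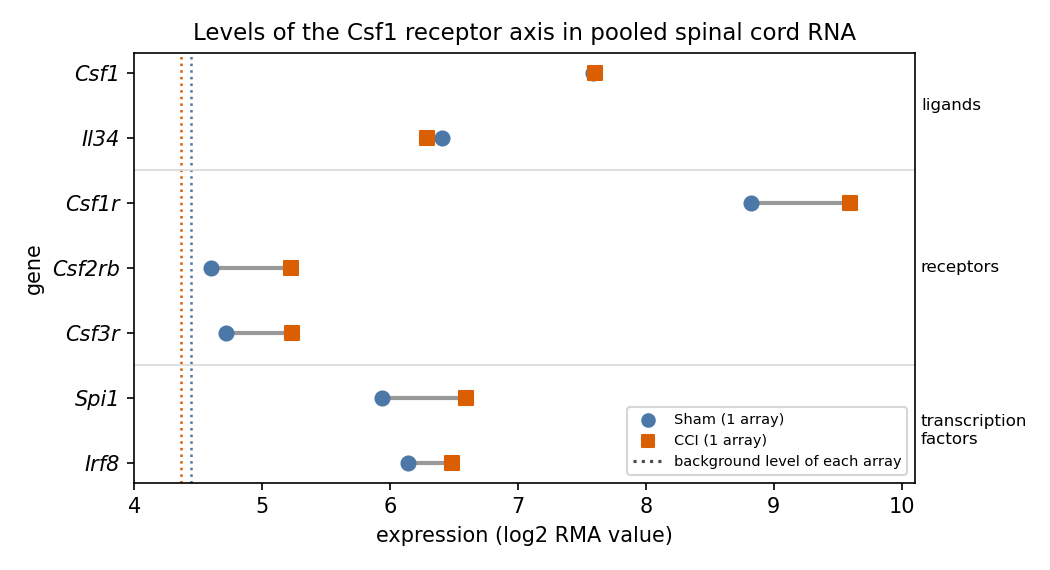
Expression of the 7 measured genes of the Csf1 receptor axis, as log2 RMA value on the horizontal axis, with 1 array of pooled RNA per group (circles, Sham; squares, CCI; dotted lines, background level of each array). The squares of the receptors and transcription factors lie to the right of the circles, from 0.35 for Irf8 to 0.77 for Csf1r, and those of Csf1 and Il34 lie within 0.12 of them.

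Csf1, the ligand first named for its action on macrophage colonies, measured 7.59 in Sham and 7.60 in CCI, a difference of 0.01 on the log2 scale. Among the 500 genes closest to it in mean level, 168 had a larger difference. Il34, the other ligand, measured 6.41 in Sham and 6.29 in CCI, 1.09-fold lower in CCI. Its difference of -0.12 was at the 39.6th percentile of the 500 genes of like level. Both ligands were therefore among the middle of genes measured at their level, and neither approached 1.5-fold. Csf2, the ligand of the Csf2ra and Csf2rb pair, was at 3.15 and 3.22, under the background level of each array. So was Csf3, the ligand of Csf3r, at 4.06 in Sham and 3.75 in CCI, and for these ligands no fold is given. Csf2 and Csf3 were named as partners of listed receptors after their values were seen.

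Csf1r showed the highest difference of the axis. It measured 8.82 in Sham and 9.60 in CCI, a difference of 0.77 or 1.71-fold. Among the 500 genes closest to it in mean level, 4 passed 1.5-fold upward and 2 downward, and 2 had a larger difference than Csf1r. The 5 genes of that range whose difference came closest to that of Csf1r over the 2 arrays were Gsta1 (0.78), Rnaset2 (0.83), the fractalkine receptor gene Cx3cr1 (0.71), the leukocyte actin-bundling gene Lcp1 (0.59) and Marchf5 (0.43). Cx3cr1, a microglial gene, measured 8.89 in Sham and 9.60 in CCI. Gsta1 belongs to a family of close relatives whose probes may not separate its members.

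Csf2rb measured 4.60 in Sham and 5.22 in CCI, a difference of 0.63 or 1.55-fold, only slightly past the threshold. Csf3r measured 4.72 in Sham and 5.23 in CCI, a difference of 0.51 or 1.43-fold, short of it. Both receptors lay close to the background level, and 13 and 23 of the 500 genes of like level had a larger difference than Csf2rb and Csf3r. At the level of Csf2rb, 14 of the 500 genes passed 1.5-fold upward and 11 downward, so that differences of this size occurred in both directions there. With the background level at the 99th percentile of the receptor genes, at 5.38 in Sham and 5.47 in CCI, Csf2rb and Csf3r were below it in both arrays.

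Spi1 measured 5.93 in Sham and 6.59 in CCI, a difference of 0.66 or 1.58-fold, and 3 of the 500 genes of like level had a larger difference. At the level of Spi1, 6 of the 500 genes passed 1.5-fold upward and 8 downward. Irf8 measured 6.14 in Sham and 6.49 in CCI, a difference of 0.35 or 1.27-fold, with 17 of 500 above it. Irf8 was thus the gene with the smallest difference among the receptors and factors, and it did not pass 1.5-fold.

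**Figure D2:**
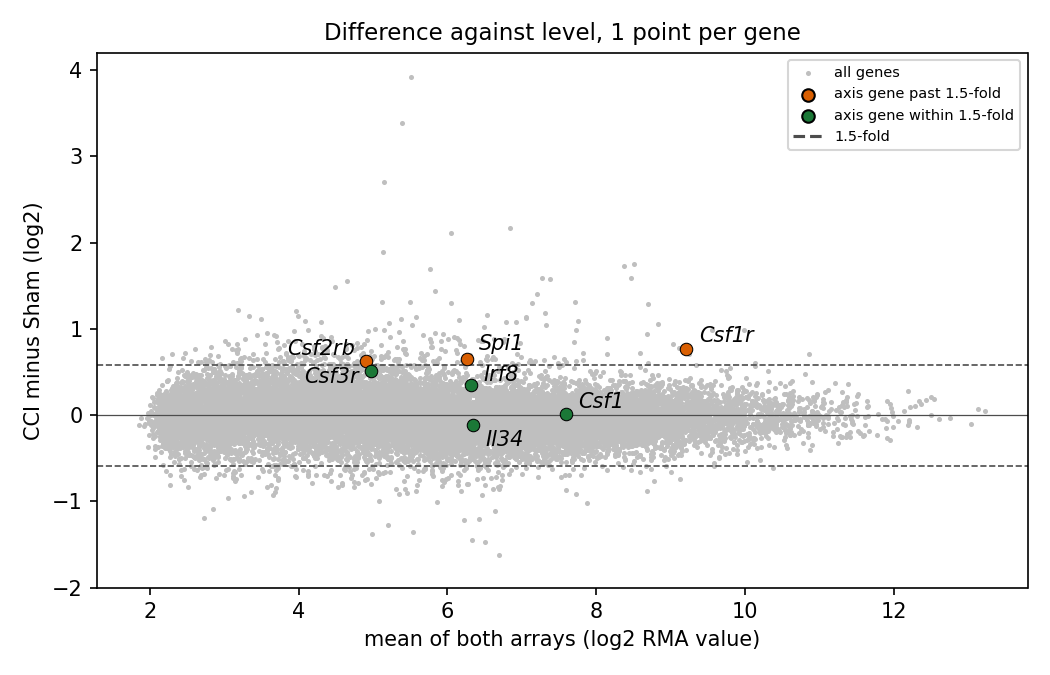
Difference of CCI minus Sham on the log2 scale (vertical axis) against the mean log2 RMA value of both arrays (horizontal axis), with 1 point for each of 18166 genes and dashed lines at 1.5-fold. Csf1r, at 0.77, and Spi1, at 0.66, stand at the upper edge of genes of like level, whereas Csf2rb and Csf3r lie where the spread of all genes is wider.

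RefSeq promoter windows, which reach from 250 bases before to 50 bases after a start site, were held for 4 of the 8 listed genes, and are shown for the 3 of these that were measured because PU.1, the product of Spi1, binds a GAGGAA core. Capitals mark GAGGAA on either strand, so that TTCCTC is the core on the opposite strand. The build is GRCr8 and all 3 genes lie on the + strand, with Csf1r at chr18:56834129-56834428, Csf3r at chr5:143582970-143583269 and Irf8 at chr19:65699034-65699333.
Csf1r: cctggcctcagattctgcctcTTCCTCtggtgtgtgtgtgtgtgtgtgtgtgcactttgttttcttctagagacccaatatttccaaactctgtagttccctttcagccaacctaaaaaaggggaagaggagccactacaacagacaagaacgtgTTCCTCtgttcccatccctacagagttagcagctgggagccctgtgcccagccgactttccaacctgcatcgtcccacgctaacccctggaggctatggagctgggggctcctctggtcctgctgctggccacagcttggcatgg
Csf3r: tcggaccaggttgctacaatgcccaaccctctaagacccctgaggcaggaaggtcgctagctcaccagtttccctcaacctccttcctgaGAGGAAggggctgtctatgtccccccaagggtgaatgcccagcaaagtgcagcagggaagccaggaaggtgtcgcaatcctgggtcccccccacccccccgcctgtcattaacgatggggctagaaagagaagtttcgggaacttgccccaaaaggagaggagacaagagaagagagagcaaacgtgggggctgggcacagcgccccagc
Irf8: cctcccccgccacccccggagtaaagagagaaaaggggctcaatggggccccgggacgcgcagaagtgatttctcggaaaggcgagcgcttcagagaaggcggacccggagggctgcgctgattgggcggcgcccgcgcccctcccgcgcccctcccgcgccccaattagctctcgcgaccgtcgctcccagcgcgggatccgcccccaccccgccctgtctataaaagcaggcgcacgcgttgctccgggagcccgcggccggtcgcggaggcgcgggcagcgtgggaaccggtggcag
The Csf1r window held 2 GAGGAA cores, both on the opposite strand, beginning at positions -229 and -95 from the start site. The Csf3r window held 1, on the + strand, beginning at -160, and the window of Csf2ra, whose transcript was not measured, held 1 as well. No GAGGAA was found in the Irf8 window, which had a GC content of 72.3% against 54.3% for Csf1r. Of 33469 promoter windows of 300 bases, 27.6% held GAGGAA on either strand, so that it is a frequent sequence. The ETS-IRF composite (GGAA, any pair of bases, then GAAA), held by 2.94% of windows, the RUNX core TGTGGT, held by 17.3%, and the C/EBP sequence TTGCNNAA, held by 10.6%, were searched in the same way on both strands and had no match in the 4 windows. GAGGAA can overlap the GGAA of the composite. The start sites used for Csf1r, Csf2ra and Csf3r lie 227, 691 and 94 bases inside the annotated genes, whose spans begin upstream of them. A match describes letters in a window and is not a binding site.

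The other receptors of the kinase class of Csf1r did not share its direction. Kit, the receptor for stem cell factor, measured 5.89 in Sham and 5.48 in CCI, 1.32-fold lower. Flt3, a receptor of early blood and dendritic cells, was at 7.67 and 7.21, 1.38-fold lower. Of the platelet-derived growth factor receptors, Pdgfra, which marks oligodendrocyte precursors, was 1.36-fold lower, at 7.63 and 7.18, and Pdgfrb, which marks pericytes, was 1.30-fold lower, at 6.42 and 6.04. Csf1r was therefore the only 1 of these 5 kinases with a higher value in CCI, and none of the other 4 passed 1.5-fold. Over the list of other ligands and receptors of these families, 13 of 14 genes were measured, of which 3 were higher in CCI, 10 lower and none past 1.5-fold, with a median difference of -0.09. Il3ra, a partner of Csf2rb, was at 5.96 and 5.87, and Il5ra, another partner, was under the background level of each array, at 2.83 and 2.73. Kit, Pdgfrb, Il3ra and Il5ra were named as relatives or partners of listed genes after their values were seen.

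The relatives of Irf8 differed in direction from one another. Irf5, which acts in myeloid cells, measured 5.68 in Sham and 6.09 in CCI, 1.33-fold higher. Irf7, the interferon-induced amplifier of the type I interferon response, was at 7.24 and 5.77, 2.76-fold lower, and Irf9, a subunit of the complex that interferon activates, was at 7.30 and 6.79, 1.42-fold lower. Irf1, Irf2 and Irf3 had differences of 0.14, 0.00 and 0.11, and Irf4 was under the background level of each array. Of the 7 measured relatives, 5 had higher values in CCI and none of these passed 1.5-fold, while 2 were lower and 1 of them passed it. Irf5, Irf1, Irf2, Irf3 and Irf4 were named as relatives of Irf8 after their values were seen. Spib and Spic, the close relatives of Spi1, were under the background level of each array, at 3.33 and 3.48 for Spib and 3.05 and 3.12 for Spic, and were likewise named after their values were seen.

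**Figure D3:**
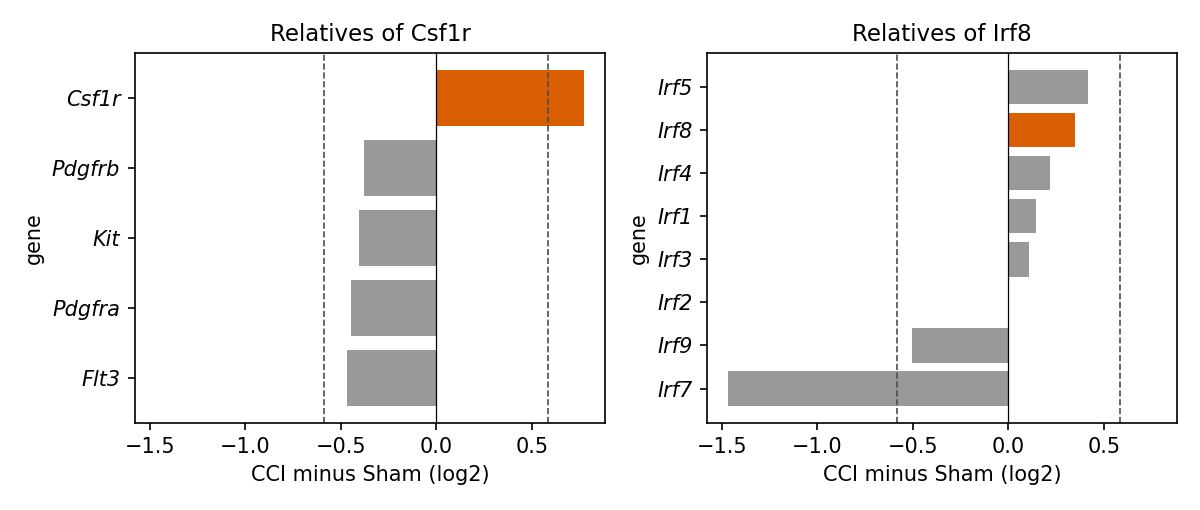
Difference of CCI minus Sham on the log2 scale (horizontal axes) for Csf1r and 4 other receptor kinases of its class (left) and for Irf8 and 7 other interferon regulatory factors (right), with 1 array per group and dashed lines at 1.5-fold either way. Csf1r is the only bar to the right of 0 among the kinases, and Irf7, at -1.47, is the longest bar among the factors.

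Among 20 measured genes of other myeloid transcription factors, 14 were higher in CCI, 6 were lower and 2 were higher past 1.5-fold. Cebpa, which together with PU.1 directs myeloid differentiation, measured 5.02 in Sham and 5.68 in CCI, 1.57-fold higher. Tfec, a macrophage factor, was at 3.52 and 4.39, the former below the background level and the latter close to it, so that no fold is given. The median of the list was 0.07. Cebpa and Tfec both lay below 5.83, the median level over the 18166 genes.

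Signalling genes below the Csf receptors were in part higher. Of 28 measured, 21 were higher in CCI and 7 lower, with a median of 0.13, and 5 were higher past 1.5-fold. Tyrobp, the adaptor DAP12 that couples to Csf1r signalling in macrophages, measured 7.20 in Sham and 8.30 in CCI, 2.14-fold higher. Ptpn6, the phosphatase SHP-1, was 1.64-fold higher, at 6.58 and 7.29. Vav1, a signalling gene of blood cells, was 1.62-fold higher, at 4.83 and 5.53. The Src-family kinase Lyn was 1.59-fold higher, at 6.28 and 6.95. Dok2, an adaptor of blood cells, was at 3.93, below the background level, in Sham and at 4.57 in CCI, a bound of at least 1.10-fold that does not establish a difference. These 5 genes are known mainly from blood cells and macrophages, microglia included. Other genes of the list known from such cells did not pass 1.5-fold. Among them, Sla (0.54) and Pik3cd (0.51) were higher, and Fgr (-0.02) and Plcg2 (-0.08) were not. They too were named after their values were seen. The widely expressed adaptor genes Grb2, Pik3r1 and Shc1, named after their values were seen, differed by -0.04, 0.02 and 0.41.

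Identity markers of microglia and macrophages were higher in the same pool. All 23 measured of 24 had a higher value in CCI, 15 of them past 1.5-fold, and 22 were above the background level in both arrays. Their median level was 6.50 in Sham and 7.91 in CCI. These medians fall on different genes, Gpr34 and Aif1, so the gap between them is not the shift of the list. The median of the differences was 0.89 on the log2 scale. Against these markers, the difference of Csf1r was exceeded by 13 of 23, that of Spi1 by 15, Csf2rb by 15, Csf3r by 16 and Irf8 by 19. All 23 exceeded Csf1 and Il34. Among the markers, the complement gene C1qa had the largest difference, 1.75, and Aif1, which encodes Iba-1, had one of 1.41, against 0.77 for Csf1r and 0.71 for Cx3cr1. The difference of Csf1r was in turn larger than that of 10 of the 23 markers. Among those 10 were P2ry12 (0.46), Trem2 (0.46), Tmem119 (0.27), Olfml3 (0.20), Slc2a5 (0.20) and Itgb2 (0.18), named after their values were seen. None of these passed 1.5-fold. The 10 also held Laptm5 (0.72) and Cx3cr1 (0.71), which passed it, and Ctss (0.58) and Cd68 (0.45), which did not. Cd68 was below the background level in Sham. The part of microglial number in the values of Csf1r, Spi1 and Irf8 was not tested.

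Markers of other cells in which these receptors are known were set beside them. Of 16 measured neutrophil and monocyte genes, 9 had higher and 7 lower values in CCI, with a median of 0.12, and 10 lay under the background level of each array. Among those 10 were the neutrophil genes S100a8 (3.09 and 2.83), S100a9 (3.66 and 3.34) and Ngp (3.00 and 3.66), named after their values were seen. Of the 4 genes higher past 1.5-fold, Ngp was under the background level, and the others were Plac8, at 5.76 and 7.93, Itgal, at 4.68 and 5.75, and Lyz2, higher by 0.60 on the log2 scale. These 3 are also known from other leukocytes or macrophages. Of the 5 genes of the list above the background level in both arrays, the other 2 were lower in CCI. They were Lcn2 (-0.30) and Cd177 (-0.12), named after their values were seen. None of 6 measured dendritic cell genes passed 1.5-fold, with a median of -0.01. Perivascular and meningeal macrophage markers were lower in 6 of 7, with a median of -0.24 and none past 1.5-fold. Of these 7 markers, 2 lay under the background level of each array, as did 4 of 7 lymphocyte markers. The lymphocyte markers were higher in CCI in 5 and lower in 2, with a median of 0.13 and none past 1.5-fold. The part of these cells in the values of Csf2rb and Csf3r was not tested.

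Marker genes of cells known as sources of the ligands were set beside Csf1 and Il34. Injury-response genes of axotomised neurons had higher values in 10 of 11, with 5 past 1.5-fold and a median of 0.52. Among them, the injury factor Atf3 measured 5.77 in Sham and 6.49 in CCI and the neurotrophin receptor gene Ngfr 5.48 and 6.42. Reg3b and Sprr1a, also past the threshold, were below the background level in Sham, so that their folds are bounds of at least 6.28 and 1.74. Csf1, with a difference of 0.01, was not among the genes that were higher past the threshold. The tissue was SC, so Csf1 in sensory ganglia was not measured, and its level in axotomised neurons alone was not tested. Neuron markers were lower in 11 of 11, with a median of -0.29, and 2 of them, Chat and Gad1, were lower past 1.5-fold. Il34 was lower by 0.12, which is less than the median of the neuron markers. Markers of astrocytes, oligodendrocytes, Schwann cells, sensory ganglia and meninges had medians from -0.08 to 0.12, and those of endothelium a median of -0.28. The defining markers of SC cells were present in both arrays, with neuron, astrocyte and oligodendrocyte markers all above the background level.

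**Figure D4:**
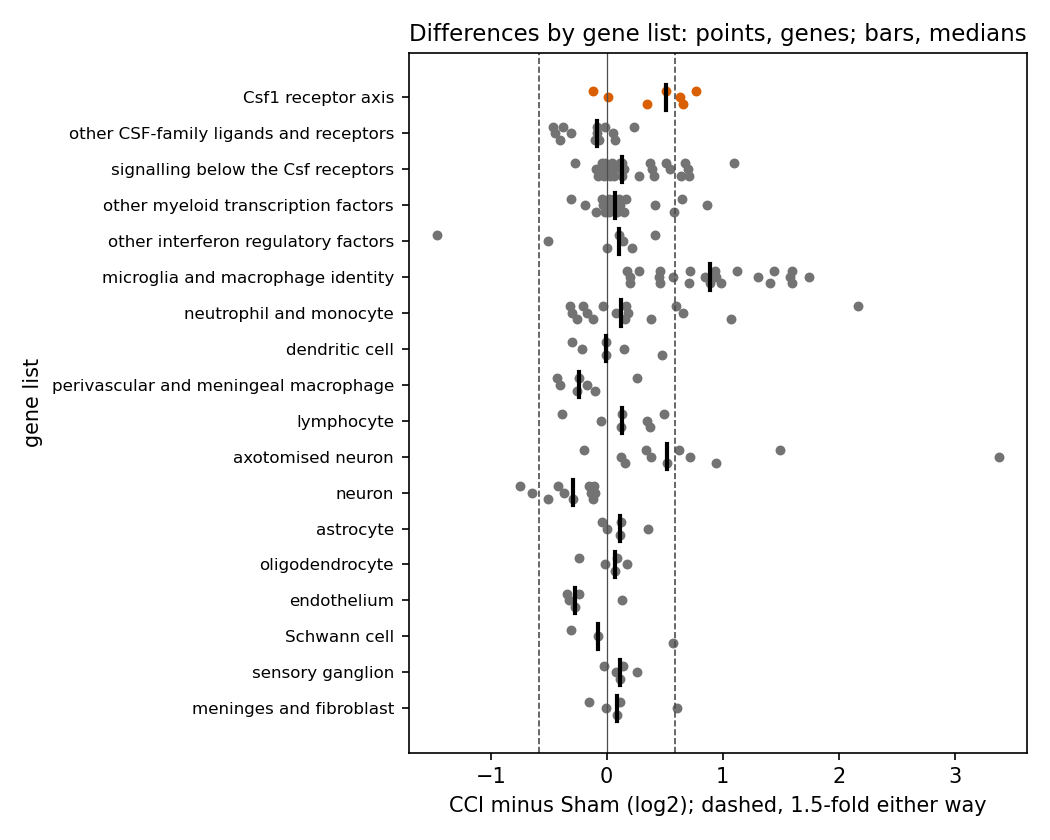
Differences of CCI minus Sham on the log2 scale (horizontal axis) for each measured gene of the Csf1 receptor axis and of 17 other gene lists (vertical axis). Points are genes, bars are list medians and dashed lines mark 1.5-fold. The median of the axis, 0.51, lies below that of the microglia and macrophage list, 0.89, next to that of the axotomised neuron list, 0.52, and above those of the other 15 lists, and Csf1 and Il34 are the leftmost points of the axis.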

How the data were processed

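Total RNA of lumbar SC was mixed from 3 rats per group by the authors and measured on 1 array per group. Per the labels, the deposited log2 values had been processed by the authors with RMA, which corrects background, equalises the distributions of the arrays and summarises the probes of a set. A shift shared by most genes cannot be seen after this step, and folds of dim genes can be understated. No genome build for the array annotation was given in the sources used here.

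Of 28879 probe sets, 18511 were named for exactly 1 gene symbol in the platform annotation, 575 for several and 9793 for none. Symbols were updated through the Entrez ID, found in a GRCr8 RefSeq table for 18394 of them. Per gene the probe set with the highest mean was kept, and all 7 measured axis genes had 1 probe set each. The measure was the log2 value of CCI minus Sham. A dimmer value at or below the background level turned a fold into a bound against that level, and no fold was given where both values were at or below it. The trend and threshold steps were tested on simulated data, in which 100% of 200 genes changed by 2-fold were recovered among 18166. Recovery was scored after trend subtraction, and the simulated noise was smaller than the SD of 0.26 of the real differences. Changes near 1.5-fold were not put in, so this check does not bear on the folds of the axis genes. Python 3.11.15, pandas 2.3.3 and statsmodels 0.14.6 were used.

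The axis genes and the 17 lists around them were chosen with earlier results of these data known. Genes named outside the axis were those of each list past 1.5-fold and above background in at least 1 array, of which only those a result turns on are printed, or up to 2 with the largest difference where fewer than 2 passed, and the 5 genes closest to Csf1r. Exceptions are stated where they occur. Alternatives were a 2-fold threshold, a floor at the median level, subtraction of a lowess trend (span 0.3) or of the median of all genes, other choices of probe set, list means and other background percentiles.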

Additional observations from a re-analysis of the deposited data

How the results depend on the processing

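The 3 genes past 1.5-fold, Csf1r, Spi1 and Csf2rb, kept their side of the threshold, and the 7 axis genes their direction, after subtraction of the lowess trend or of the median of all genes and with either other choice of probe set. The choices of probe set could not change them, since each gene had 1. Csf2rb stayed past the threshold only narrowly after trend subtraction, at 0.597 on the log2 scale, where 1.5-fold is 0.585. With a 2-fold threshold 0 of the 7 genes passed. With a floor at the median level, which removes Csf2rb and Csf3r, the median difference of the remaining 5 genes was 0.35, and the mean of all 7 was 0.40. At the 99th percentile of the receptor genes, 5 of the 7 were above the background level in both arrays. Of 246 values for the other lists, 20 moved by more than 1.5 times or 0.1 on the log2 scale. The sign of a list's central value changed in 6 cases over 4 lists. With the mean in place of the median, it went from 0.11 to -0.15 for the other interferon regulatory factors, from -0.08 to 0.06 for Schwann cells and from -0.01 to 0.02 for dendritic cells. For dendritic cells it was 0.15 above the floor, with 1 gene left, and 0.01 with the median of all genes subtracted, and for the other myeloid transcription factors it was -8.4e-05 above the floor. No paired analysis was possible because each group had 1 array. The number of arrays limits the precision, and no setting supplies a replicate error.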
